A study of Mus musculus with 5 samples.

Results

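Secretory epithelial cells of the mouse small intestine were found among cells that the labels describe as sorted group 3 innate lymphoid cells (ILC3s). They were chosen from the measured counts. A cell was a member when 8 secretory genes (Muc2, Zg16, Tff3, Fcgbp, Chga, Gcg, Defa24 and Lyz1) together gave at least 0.5% of its unique molecular identifiers (UMIs, one per captured RNA molecule) and more UMIs than 4 enterocyte genes (Fabp1, Fabp2, Apoa1 and Anpep). This rule found 110 of the 8447 intestinal cells that passed filters of 500 UMIs and 250 genes as minimum and 20% mitochondrial UMIs as maximum. The same rule found 0 of 12172 kept kidney cells, which allows a share of up to 0.0246%.

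Intestine was taken from wild-type male mice aged 8 to 10 weeks. In the unilateral ureteral obstruction (UUO) group the left ureter was tied off and cut, and intestine was collected after 3 days. In the sham group the ureter was exposed and handled but not tied. The kidney cells came from 1 library of wild-type mice 14 days after UUO and 1 of mice labelled PD-1 knockout (strain B6.Cg-Pdcd1tm1.1Shr/J) 3 days after UUO. Each group is 1 library made on the BD Rhapsody system, which captures single cells in microwells, and how many mice a library came from is not stated in these sources. The digestion described in the labels is of pulmonary artery, which does not match the organ. With 1 library per group no difference could be tested, so no p-value is given. All intervals in brackets are exact 95% intervals that cover counting error only. The libraries held 5209 barcodes for UUO and 3621 for sham, with medians of 2177 and 2039 UMIs per kept cell.

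Secretory cells of the small intestine share a progenitor that depends on the transcription factor Atoh1, and they make products for the gut lumen or for the blood. Goblet cells release the gel-forming mucin Muc2 together with proteins that shape the mucus layer. Paneth cells sit at the base of the crypts and release antimicrobial peptides, mainly alpha-defensins (Defa genes) and lysozyme (Lyz1). Enteroendocrine cells store peptide hormones or serotonin in granules that hold chromogranins (Chga, Chgb).

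The defining genes lie apart in the genome and were read by symbol in the deposited counts. In GRCm38 with the GENCODE M21 annotation, Muc2 spans chr7:141690340-141754693 on the plus strand and the lectin gene Zg16 spans chr7:127050156-127087328 on the minus strand. Fcgbp, which codes for an IgG Fc-binding mucus protein, spans chr7:28071236-28120862 on the plus strand, and the trefoil factor gene Tff3 spans chr17:31125306-31129646 on the minus strand. Defa24 spans chr8:21734494-21735471 on the plus strand and Lyz1 spans chr10:117287797-117292868 on the minus strand. Chga spans chr12:102554969-102565028 on the plus strand, and Gcg, the proglucagon gene, spans chr2:62474530-62483650 on the minus strand.

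Every Defa transcript in the files has a near copy within the family, which bears on all Defa levels given here. Not all members are near copies, since the transcripts of Defa21 and Defa22 are 81.6 and 81.9% identical to that of Defa24. Each of the 28 Defa genes in the files had another one whose annotated transcript was 95.1 to 100% identical, with a median of 99.2%. The last 90 coding bases, which include the stop codon, are shown for the 4 most abundant genes, with capitals at the bases that differ from Defa24.
Defa24: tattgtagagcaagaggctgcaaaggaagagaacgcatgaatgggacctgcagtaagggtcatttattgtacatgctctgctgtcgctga
Defa30: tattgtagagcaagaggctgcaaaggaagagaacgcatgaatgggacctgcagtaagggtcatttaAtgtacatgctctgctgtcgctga
Defa21: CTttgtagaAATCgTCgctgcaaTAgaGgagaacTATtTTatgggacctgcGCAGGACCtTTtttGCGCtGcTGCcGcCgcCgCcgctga
Defa22: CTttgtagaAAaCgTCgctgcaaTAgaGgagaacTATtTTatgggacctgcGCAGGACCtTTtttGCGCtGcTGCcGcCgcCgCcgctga
Defa30 differed from Defa24 at 1 of these bases, whereas Defa21 differed at 38 and Defa22 at 37. The labels do not say how reads were divided between such copies, so the division of UMIs within the family is uncertain and the family sum is given as well.

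Promoter sequences are shown for a goblet, a Paneth and an enteroendocrine product as an example of each class. Muc2 and Gcg are among the 8 rule genes, and Defa22 is another abundant Paneth product. They are the 120 bases before the RefSeq start on GRCm38.p6, read on the strand of the gene, with capitals at TATAA or, on the other strand, TTATA.
Muc2, chr7:141690220-141690339, plus strand: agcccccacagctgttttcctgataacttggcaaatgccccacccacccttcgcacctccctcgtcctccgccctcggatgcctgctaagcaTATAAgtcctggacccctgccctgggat
Defa22, chr8:21162157-21162276, plus strand: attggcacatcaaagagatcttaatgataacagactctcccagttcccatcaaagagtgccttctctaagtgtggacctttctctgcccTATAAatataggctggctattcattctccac
Gcg, chr2:62483654-62483773, minus strand: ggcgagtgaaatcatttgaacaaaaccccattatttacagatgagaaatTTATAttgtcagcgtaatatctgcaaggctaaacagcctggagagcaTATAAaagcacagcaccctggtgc
TATAA, counted on either strand within these 120 bases, was present in 8 of the 14 Paneth-list promoters that had an entry (57.1%), against 3892 of 32851 promoters in the whole table (11.8%). These letters are a description of the window and no more. The table's entries for Defa21 and Defa22 were identical over all 300 bases, so these promoters are not independent of each other.

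Barcodes shared between the libraries bear on many of the values. The intestine libraries had 158 barcodes in common, and 10 UUO members and 13 sham members carried one. In 9 barcodes both cells were members, and both fell in the same class each time, Paneth in 8 and goblet in 1. In each of these pairs one cell was deep, with 14783 to 48796 UMIs, and its twin held 3.35 to 6.14% as many, with 591 to 2414 UMIs. The shallower twin was the UUO cell for 5 members and the sham cell for 9 members. Counting a barcode once leaves 101 members.

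Secretory RNA found in other kept cells was also unequal between the groups, and how it came to those cells was not tested. In kept cells that were neither secretory cells nor enterocytes, Zg16 stood at 38.1 CPM (counts per 1000000 UMIs) after UUO and 155 CPM after sham. Muc2 was at 29.8 and 55.9 CPM, Tff3 at 46.1 and 98.5 CPM, and Gcg at 0.364 and 49.3 CPM in the same order of groups. Defa24, by contrast, was at 480 CPM after UUO and 433 CPM after sham, and 62.4% of these UUO cells and 59.3% of these sham cells had a Defa24 UMI at medians of 2165 and 2041 UMIs per cell. The presence of a single Defa24 UMI is therefore background in these libraries, and levels in members were read against the levels in these other cells.

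Members were a similar share of kept cells in both sorted libraries and a lower share of epithelial cells after UUO. There were 63 members of 4946 kept cells after UUO (1.27%, 0.980 to 1.63) and 47 of 3501 after sham surgery (1.34%, 0.988 to 1.78), and these intervals overlap. Enterocytes, the absorptive cells, numbered 316 after UUO and 111 after sham, and 62 and 56 of them carried a shared barcode. Fabp2, a gene that chose them, stood at 455 CPM after UUO and 120 CPM after sham in kept cells outside the epithelium. Its part in the enterocyte counts was not tested. Secretory cells made up 16.6% of epithelial cells after UUO (13.0 to 20.8) and 29.7% after sham (22.7 to 37.5). The intervals of these shares did not overlap, but they cover counting error in 1 library per group and test no difference. Without any shared barcode these shares were 17.3% after UUO and 38.2% after sham. The sort was aimed at lymphocytes, so the shares describe cells that passed it, not the epithelium of the gut.

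**Figure D1:**
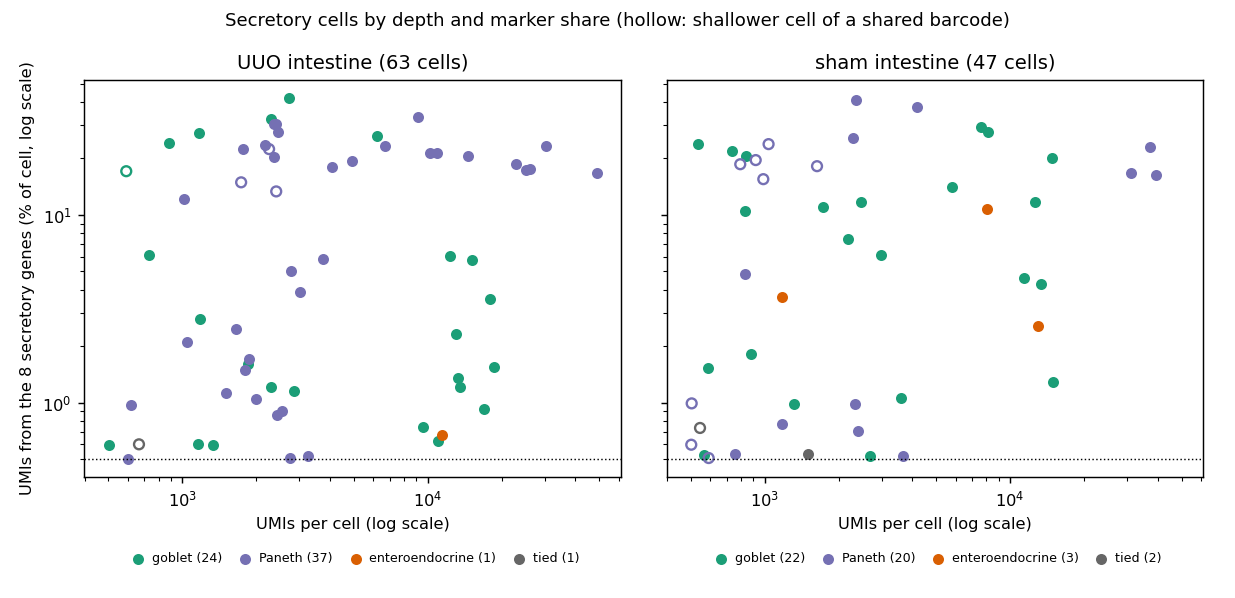
UMIs per cell (x axis, log scale) and the share of UMIs from the 8 secretory genes (y axis, percent, log scale) for the 63 UUO members and the 47 sham members, coloured by class, with hollow points for the shallower cell of a shared barcode and a dotted line at 0.5%. Paneth-set cells fall into a group above 10% and a group below 6%, and all 10 UUO goblet-set cells above 9000 UMIs lie below 10%.

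The class of a member was the gene set with most UMIs: Muc2, Zg16, Tff3 and Fcgbp for goblet, Defa24 and Lyz1 for Paneth, Chga and Gcg for enteroendocrine. After UUO there were 24 goblet-set cells (38.1% of members, 26.1 to 51.2), 37 Paneth-set cells (58.7%, 45.6 to 71.0), 1 enteroendocrine-set cell and 1 tied cell. After sham there were 22 goblet-set cells (46.8%, 32.1 to 61.9), 20 Paneth-set cells (42.6%, 28.3 to 57.8), 3 enteroendocrine-set cells and 2 tied cells. The intervals of the goblet and Paneth shares overlapped between the groups. The Paneth share depended on the shared barcodes: without any of them it was 54.7% after UUO (40.4 to 68.4) and 26.5% after sham (12.9 to 44.4), and the goblet share was 43.4% after UUO (29.8 to 57.7) and 61.8% after sham (43.6 to 77.8). Without the shallower twins the Paneth share was 58.6% after UUO and 31.6% after sham.

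Many members lay near the threshold. The lowest member had 0.502% of its UMIs from the 8 genes after UUO and 0.508% after sham. The highest cell below the threshold had 0.485% after UUO and 0.498% after sham. Between 0.5 and 1% there were 14 UUO members and 13 sham members, and between 0.25 and 0.5% there were 121 UUO cells and 185 sham cells. The cells just outside the threshold thus outnumbered all members in both libraries.

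The label of secretory cells held for the high-share members and was uncertain for low-share ones, above all in the Paneth set. Of the Paneth-set cells, 22 after UUO and 11 after sham had at least 10% of UMIs from the 8 genes, a split chosen after the values were seen. Their median summed level of ILC3 and lymphocyte markers was 2816 CPM after UUO and 3577 CPM after sham. The 15 UUO and 9 sham Paneth-set cells below that split had at most 5.84% and 4.83% of UMIs from the 8 genes, and their median lymphocyte-marker level was 17601 CPM after UUO and 11936 CPM after sham. Kept cells outside the epithelium had 18023 and 18812 CPM of these markers when summed. Goblet-set cells below 10% differed from this, with medians of 2866 CPM of lymphocyte markers after UUO and 5307 CPM after sham beside 7045 and 5018 CPM of epithelial structure genes, but 5 of the 18 UUO cells and 5 of the 11 sham cells had more lymphocyte-marker than structure UMIs. Lymphocyte-marker UMIs exceeded those of 10 epithelial structure genes in 33 of 63 UUO members and 22 of 47 sham members. These include 13 of the 22 UUO and 9 of the 11 sham Paneth-set cells with a high share, so the count also takes in cells with little structure RNA and few lymphocyte UMIs. In addition, 1 UUO Paneth-set cell of 598 UMIs had 16 UMIs of Lyz2, the macrophage lysozyme, beside 2 of Lyz1. Whether low-share members are lymphocytes with free secretory RNA was not tested, and doublets were not called.

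Several goblet products were lower after UUO when the UMIs of all goblet-set cells were summed, and their ratios changed with how cells were weighted or split. The summed cells held 167277 UMIs after UUO and 110631 after sham. Zg16, a lectin of the mucus layer, was at 11932 CPM after UUO and 46406 CPM after sham, a log2 ratio of -1.96 (-2.03 to -1.88). Without the cell holding most of its UMIs the ratio was -1.57, and as a mean over cells, each weighted equally, it was -0.44. Single UUO cells ran from 0 to 120135 CPM of Zg16 with a median of 2822 CPM, and single sham cells from 266 to 148730 CPM with a median of 5196 CPM, so the groups overlapped almost throughout.

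Muc2 and Fcgbp showed the same dependence on how cells were weighted. Muc2 was at 7538 CPM after UUO and 13622 CPM after sham (log2 -0.85, -0.96 to -0.74), and the mean over cells gave -0.04. Single UUO cells had 0 to 74770 CPM of Muc2 with a median of 1939 CPM, and single sham cells 0 to 39769 CPM with a median of 9220 CPM. Fcgbp was at 13774 CPM after UUO and 25924 CPM after sham (log2 -0.91), with -0.08 as a mean over cells. For both genes the highest single cell was a UUO cell while the median cell was lower after UUO. These genes also chose the cells, so their levels are descriptions.

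Clca1, Spink4 and Tff3 are secreted by goblet cells, and Clca1 and Spink4 played no part in the rule. Clca1, a mucus protease, was at 3270 CPM after UUO and 12375 CPM after sham (log2 -1.92, -2.07 to -1.78), and at -1.14 without its top cell. Spink4, a serine peptidase inhibitor of the Kazal type, was at 1590 CPM after UUO and 4465 CPM after sham (log2 -1.49, -1.71 to -1.27), and at -1.01 without its top cell. Tff3 was at 12219 CPM after UUO and 24641 CPM after sham (log2 -1.01, -1.10 to -0.93), and it fell short of 2-fold, at -0.84, without its top cell. As means over cells the log2 ratios were -0.87 for Clca1, -1.86 for Spink4 and -0.40 for Tff3, so Spink4 alone of these stayed past 2-fold.

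**Figure D2:**
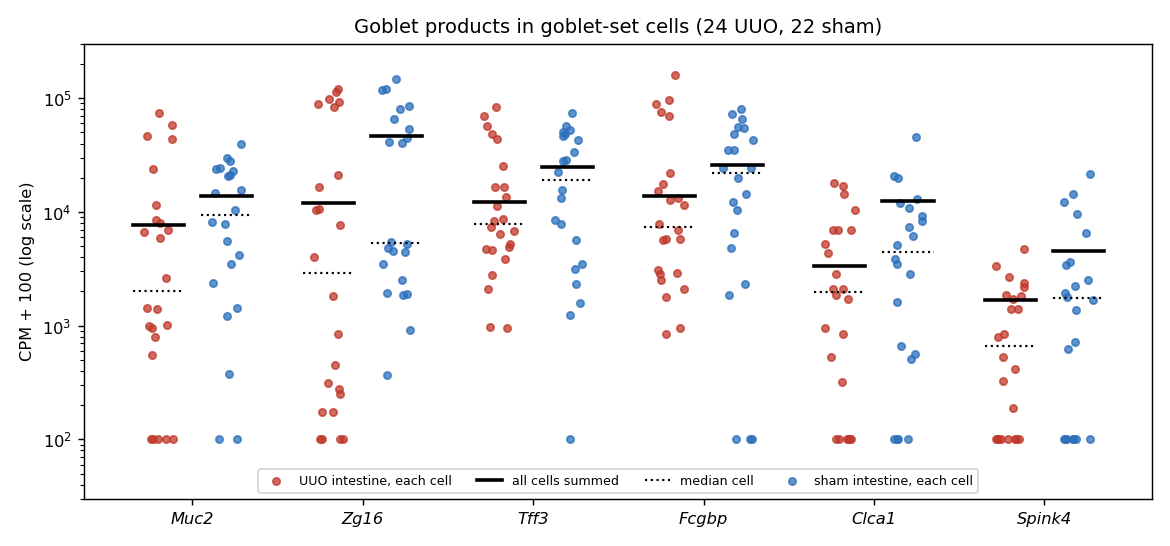
CPM + 100 (log scale) of 6 goblet products in each of the 24 UUO goblet-set cells (left of each pair) and the 22 sham goblet-set cells (right), with a thick line at the level of all cells summed and a dotted line at the median cell. The groups overlap for every gene, and the summed level of Zg16 is 11932 CPM after UUO and 46406 CPM after sham.

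The depth of goblet-set cells overlapped between the groups, with a median of 2786.5 UMIs after UUO and 2574.5 after sham, but the deepest cells weighed more after UUO. Cells above 9000 UMIs numbered 10 after UUO and 5 after sham, and they held 84.6% and 60.7% of the summed UMIs. In these deep cells Zg16 was at 4367 CPM after UUO and 35311 CPM after sham. A single sham cell of 14783 UMIs, with a shared barcode, held 1731 of the 2371 sham UMIs of Zg16, and without each library's top cell the levels were 2770 CPM after UUO and 12222 CPM after sham. Muc2 was at 3583 CPM after UUO and 10083 CPM after sham in deep cells, Clca1 at 2918 and 15608 CPM, and Spink4 at 1710 and 5004 CPM. All of these goblet products were thus lower after UUO in the deep cells.

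In the shallower cells the products did not all lie on one side. Zg16 was at 53502 CPM after UUO and 63539 CPM after sham, Clca1 at 5203 and 7382 CPM, and Spink4 at 932 and 3633 CPM. Muc2 was at 29275 CPM after UUO and 19087 CPM after sham, and Fcgbp at 52143 and 39324 CPM. Zg16, Clca1 and Spink4 were thus lower after UUO in these cells, while Muc2 and Fcgbp were higher.

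Deep and shallower goblet-set cells also carried different genes, in both libraries. Agr2 was at 4515 CPM after UUO and 5898 CPM after sham in deep cells, and at 505 and 1932 CPM in shallower cells. Slc12a2 was at 1081 CPM after UUO and 596 CPM after sham in deep cells, and at 194 and 161 CPM in shallower cells. Ido1, an enzyme that breaks down tryptophan, went the other way, with 0 UMIs after UUO and 223 CPM after sham in deep cells against 1941 and 2737 CPM in shallower cells. The keratin gene Krt20, a marker of differentiated epithelium, was at 424 CPM after UUO and 774 CPM after sham in deep cells, and at 1087 and 1955 CPM in shallower cells. Deep cells thus had higher summed levels of Agr2 and Slc12a2 and lower ones of Ido1 and Krt20 in both libraries. Some levels rest on few UMIs. Slc12a2 had 5 UMIs in 2 UUO and 7 in 3 sham shallower cells, and sham deep Ido1 had 15 UMIs in 1 cell. The 6 UUO and 6 sham goblet-set cells with more lymphocyte-marker than epithelial structure UMIs were all shallower cells, of at most 2299 and 3587 UMIs.

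Goblet-set cells can also be divided by their share of rule genes, into 6 UUO and 11 sham cells with at least 10% and 18 UUO and 11 sham cells below it. The ranges are cut on Zg16, Muc2, Tff3 and Fcgbp themselves, so the levels of these genes within a range are partly fixed by the cut and support nothing. In the high range Zg16 was at 97138 CPM after UUO and 87648 CPM after sham (log2 0.15), Muc2 at 53484 and 22831 CPM (log2 1.23), and Fcgbp at 91573 and 37671 CPM (log2 1.28). In the low range Zg16 was at 4249 CPM after UUO and 4032 CPM after sham (log2 0.08), and Fcgbp at 6758 and 13855 CPM (log2 -1.04).

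Clca1 and Spink4, which took no part in the cut, differed between the ranges. In the high range Clca1 was at 9034 CPM after UUO and 21957 CPM after sham (log2 -1.28, -1.56 to -1.01), and Spink4 at 1518 and 6118 CPM (log2 -2.01, -2.72 to -1.38). In the low range Clca1 was at 2750 CPM after UUO and 2529 CPM after sham (log2 0.12, -0.16 to 0.41), and Spink4 at 1597 and 2767 CPM (log2 -0.79, -1.09 to -0.49). With all cells summed, Spink4 was thus lower after UUO in both ranges and Clca1 in the high one. Single sham cells weighed heavily in these sums. In the high range one held 678 of the 1231 sham UMIs of Clca1, and another held 181 of the 343 of Spink4. In the low range a single sham cell held 86 of the 151 UMIs of Spink4. The ratios within the ranges were not taken without these cells.

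A gene could be compared when it had 30 or more UMIs over both groups, UMIs in 5 or more cells and 100 CPM or more in the higher group. Of such genes, 170 of 1851 (9.18%) were at least 2 times higher after UUO in goblet-set cells and 103 (5.56%) at least 2 times lower. Of the 16 goblet markers 15 could be compared, and 0 were at least 2 times higher and 6 lower, with a median log2 ratio of -0.85 against 0.13 over all genes compared. These markers include the rule genes Muc2, Zg16, Tff3 and Fcgbp, which chose the cells, and Zg16 and Tff3 are among the 6. The count is therefore a description. The 17 genes of the mucus list gave 14 that could be compared, with 0 higher, 5 lower and a median of -0.88, and this list overlaps the goblet markers. Of 18 enzymes that build and modify mucin sugars, 11 could be compared, with 0 higher, 1 lower and a median of -0.23. Fewer than 1 in 2 genes of each list thus passed 2-fold, and the medians of the goblet and mucus lists lay below that of the sugar enzymes.

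Single members of the goblet list did not all go down. Bcas1 was at 114 CPM after UUO and 461 CPM after sham (log2 -2.02). The kallikrein gene Klk1 was at 329 CPM after UUO and 660 CPM after sham (down to a log2 ratio of -0.31 without its top cell). Agr2, a disulfide isomerase needed for mucin folding, was at 3898 CPM after UUO and 4339 CPM after sham (log2 -0.15, -0.33 to 0.02). Split by depth, however, Agr2 was lower after UUO in deep cells, at 4515 and 5898 CPM, and in shallower cells, at 505 and 1932 CPM. Creb3l1, a membrane-bound transcription factor, was at 759 CPM after UUO and 407 CPM after sham (log2 0.90, 0.40 to 1.42), with 0.01 as a mean over cells.

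The transcription factors that set secretory fate were near equal in goblet-set cells. Atoh1 was at 436 CPM after UUO and 416 CPM after sham (log2 0.07, -0.48 to 0.63). Spdef, which acts in goblet and Paneth maturation, was at 293 CPM after UUO and 262 CPM after sham (log2 0.16, -0.53 to 0.88). Sox9, a factor of crypt progenitors and Paneth cells, was at 251 CPM after UUO and 45.2 CPM after sham (log2 2.47, 1.14 to 4.17) from 42 and 5 UMIs, and at 0.56 as a mean over cells. All 42 UUO UMIs of Sox9 lay in 9 of the 10 deep cells. Of the 22 listed factors 9 could be compared, and Sox9 was the 1 past 2-fold, with a list median of 0.20.

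Some genes of crypt progenitors and cycling cells were higher after UUO in goblet-set cells. Of 12 on the list 6 could be compared, with 3 at least 2 times higher, 0 lower and a median log2 ratio of 1.02. The summed level of the list was 2517 CPM after UUO and 1329 CPM after sham. Stmn1, a microtubule regulator of dividing cells, was at 227 CPM after UUO and 45.2 CPM after sham (log2 2.33, 0.98 to 4.03), and the chromatin gene Hmgb2 at 287 and 108 CPM (log2 1.40, 0.47 to 2.45). Slc12a2, a chloride cotransporter of crypt cells, was at 945 CPM after UUO and 425 CPM after sham (log2 1.15, 0.67 to 1.66), and at 0.97 without its top cell. In the deep cells the list summed to 2834 CPM after UUO and 1817 CPM after sham, and in the shallower cells to 777 and 575 CPM. The list was thus highest in the deep cells, which were more numerous after UUO, and the part of depth in this difference was not tested. Lgr5, the stem cell receptor, had 0 UMIs in goblet-set cells of both libraries.

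Genes that fold and sort secreted proteins passed 2-fold no more often than other genes. Of 24 on the list 22 could be compared, with 1 at least 2 times higher, 0 lower and a median log2 ratio of 0.44 against 0.13 over all genes compared. The chaperone gene Hspa5 was at 6313 CPM after UUO and 4131 CPM after sham (log2 0.61, 0.45 to 0.77), and all 24 UUO and 22 sham goblet-set cells had it. Split by depth, Hspa5 was higher after UUO in deep cells, at 6875 and 4527 CPM. In shallower cells it was not, at 3223 CPM after UUO and 3518 CPM after sham. Pdia4, a disulfide isomerase, was the 1 past 2-fold, at 1.02, and fell to 0.77 without its top cell. Heat-shock genes gave 3 higher and 1 lower of 10 compared. Of the 3, Hsph1 (1.45), Hspd1 (1.17) and Hsp90ab1 (1.03) went to 0.998, 0.86 and 0.89 without their top cells. Hspa1b was lower at -2.37, from 7 UMIs after UUO and 24 after sham, and went to -0.9997 without its top cell. Pigr, the receptor that carries IgA into the lumen, was at 3180 CPM after UUO and 1609 CPM after sham (log2 0.98, 0.74 to 1.24), and at 0.93 as a mean over cells. In deep cells Pigr was at 3583 CPM after UUO and 2100 CPM after sham, and in shallower cells at 971 and 851 CPM.

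The lowest ratios belonged to genes of few UMIs. Reg4, a secreted lectin of secretory cells, had 3 UMIs after UUO and 59 after sham, or 17.9 and 533 CPM (log2 -4.89, -7.21 to -3.28). The cytokine gene Il17f had 2 UMIs after UUO and 36 after sham (log2 -4.77, -7.87 to -2.81), but at -1.23 without its top cell, so 1 sham cell held most of it. Defa17 was at -4.35, and at -2.95 without its top cell, followed by the glutathione transferase gene Gsta4 at -4.30 (-6.64 to -2.64) and Ttyh1 at -3.77 (-6.13 to -2.07), with 3 UUO UMIs each, and the muscle actin gene Acta1, with 10 UMIs after UUO and 53 after sham. Without the cell that held most of each, Reg4, Gsta4, Ttyh1 and Acta1 stayed at -4.21, -3.74, -3.13 and -2.38. As means over cells they were at -4.34, -2.33, -0.64 and -2.13 in this order. Ttyh1, which fell short of 2-fold there, had UMIs in 3 cells of each library.

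The highest ratios also came from few UMIs. Hsd11b2, which inactivates glucocorticoids, had 35 UMIs after UUO and 3 after sham, or 209 and 27.1 CPM (log2 2.95, 1.28 to 5.29). Lfng, a sugar transferase that modifies Notch receptors, had 28 and 3 UMIs (log2 2.63, 0.93 to 4.99), and the RNA-binding gene Khdrbs1 had the same counts. Sox4, a transcription factor of epithelial progenitors, was at 317 CPM after UUO and 54.2 CPM after sham (log2 2.55), the splicing factor gene Srsf2 at 2.49 and Sox9 at 2.47. These ratios rest on 3 to 6 sham UMIs each, and their intervals are wide.

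**Figure D3:**
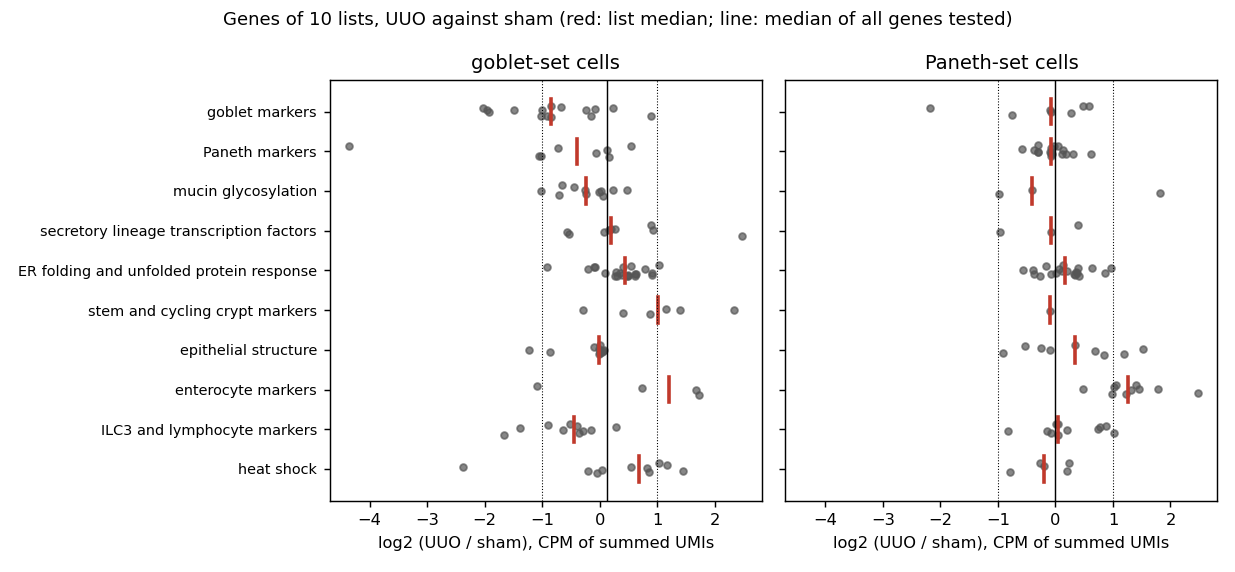
Log2 ratio of UUO over sham, from CPM of summed UMIs, for each gene that could be compared in 10 lists (rows), in goblet-set cells (left) and Paneth-set cells (right), with a red bar at the list median, a solid line at the median of all genes compared and dotted lines at 2-fold. Goblet markers, which include rule genes, have a median of -0.85 in goblet-set cells, and enterocyte markers in Paneth-set cells have a median of 1.27.

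Paneth-set cells had near equal levels of their main products in both groups. The summed cells held 266510 UMIs after UUO and 134703 after sham. Defa24 was at 119999 CPM after UUO and 127228 CPM after sham (log2 -0.08, -0.11 to -0.06). Single UUO cells ran from 1672 to 266417 CPM of Defa24 with a median of 109194 CPM, and single sham cells from 1672 to 316794 CPM with a median of 114180 CPM. Lyz1 was at 57277 CPM after UUO and 53102 CPM after sham (log2 0.11, 0.07 to 0.15). Both genes chose the cells and are given as descriptions.

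The Defa family as a whole took much of the RNA of these cells. Its 28 genes gave 39.5% of UMIs after UUO and 42.0% after sham (log2 -0.09, -0.10 to -0.08), with single UUO cells from 0.502 to 58.2% and single sham cells from 0.199 to 61.6%. In goblet-set cells the family gave 0.163% after UUO and 0.303% after sham, with median cells at 0.138 and 0.151% and 1 sham cell at 2.65%. Kept cells outside the epithelium had 0.119% after UUO and 0.102% after sham, so the goblet levels are near background. Defa30 was at 70827 CPM after UUO and 74156 CPM after sham (log2 -0.07), and Defa22 at 53837 and 56576 CPM (log2 -0.07). Defa21 was at 50557 CPM after UUO and 46183 CPM after sham (log2 0.13). The order of levels was thus Defa24, Defa30, Defa22 and Defa21 in both groups, within the limits on this division given above, and the transcripts of Defa24 and Defa30 are 98.0% identical. Lyz1 and Lyz2 transcripts are 95.8% identical, and Lyz2 was at 383 CPM after UUO and 453 CPM after sham in Paneth-set cells. Kept cells outside the epithelium had 363 and 263 CPM of Lyz2.

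Other Paneth products had small ratios as well. Itln1, an intelectin that binds microbial sugars, was at 18825 CPM after UUO and 19242 CPM after sham (log2 -0.03, -0.10 to 0.04). Ang4, an antimicrobial ribonuclease, was at 12213 CPM after UUO and 10809 CPM after sham (log2 0.18, 0.09 to 0.27). Mmp7, the protease that activates alpha-defensins in mice, was at 1505 CPM after UUO and 1938 CPM after sham (log2 -0.36, -0.59 to -0.13). Reg3g, a secreted lectin that acts on Gram-positive bacteria, was at 1343 CPM after UUO and 765 CPM after sham (log2 0.81, 0.49 to 1.14). Mptx2, a pentraxin of Paneth cells, had UMIs in 16 UUO cells and 4 sham cells, with 1576 and 1277 CPM (log2 0.30, and 2.65 without its top cell, a sham cell). Of 19 Paneth markers 17 could be compared, and 0 were at least 2 times higher or lower, against 65 of 1062 genes higher (6.12%) and 19 lower (1.79%). These markers include the rule genes Defa24 and Lyz1, which chose the cells.

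These near equal levels rest on the shared barcodes. The 3 sham Paneth-set cells above 9000 UMIs held 80.0% of the sham UMIs of the class, and each had a shallow twin in the UUO library. The 9 UUO cells above 9000 UMIs held 74.4%. Without any shared barcode, 29 UUO and 9 sham Paneth-set cells were left, and the log2 ratio was -0.10 for Defa24 and 0.49 for Lyz1, but 1.71 for Defa22, 1.44 for Defa21, 1.08 for Itln1 and 1.09 for Ang4. Reg3g was then at 2.41 and Mmp7 at 1.29. The sham side of this setting rests on few cells. Sham cells of 2358, 4193 and 2292 UMIs held 747, 1123 and 489 Defa24 UMIs, with 33, 79 and 36 of Itln1 and 24, 42 and 12 of Ang4. Each of the other sham cells left held at most 32 Defa24, 6 Itln1 and 3 Ang4 UMIs. Their share of UMIs from the rule genes was at most 4.83%. Leaving out the shallower twin of each pair kept Defa24 at -0.10 and Lyz1 at 0.10. Defa24 was thus at -0.10 in both settings, and it ran from -0.15 to 0.39 over all settings tried. It is a rule gene that chose and classed these cells, so its level is partly fixed by the choice and nothing is drawn from it.

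**Figure D4:**
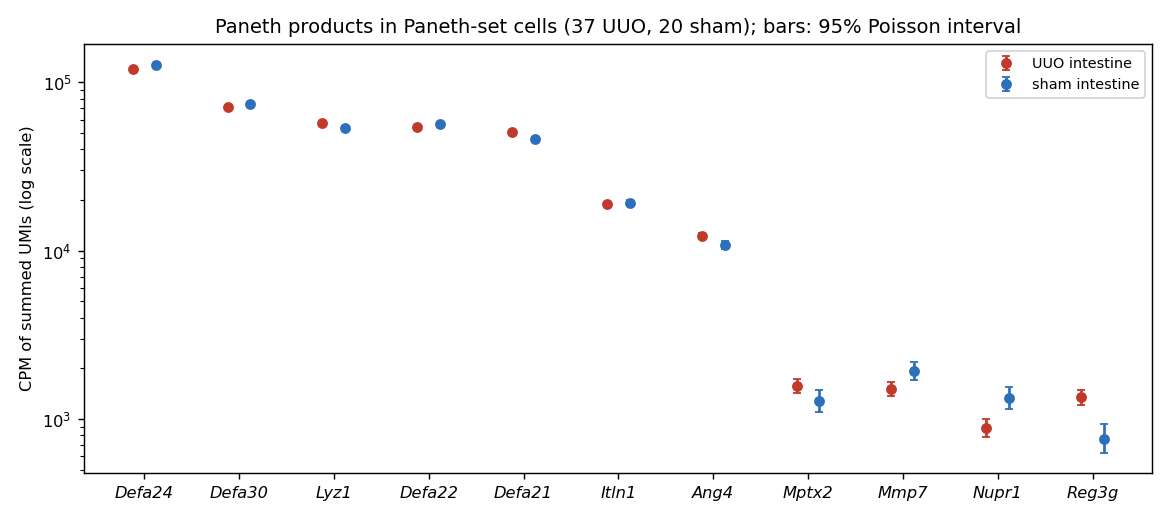
CPM of summed UMIs (log scale) of 11 Paneth products in the 37 UUO (left of each pair) and 20 sham Paneth-set cells, with bars for exact 95% Poisson intervals that cover counting error only. Defa24 is at 119999 CPM after UUO and 127228 CPM after sham, and Reg3g at 1343 and 765 CPM.

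Enterocyte genes were higher after UUO in Paneth-set cells. Of 18 on the list 10 could be compared, with 8 at least 2 times higher, 0 lower and a median log2 ratio of 1.27 against -0.01 over all genes compared. Fabp2, an intracellular fatty acid carrier, was at 743 CPM after UUO and 215 CPM after sham (log2 1.79, 1.22 to 2.40), and the apolipoprotein gene Apoa1 at 645 and 275 CPM (log2 1.23, 0.71 to 1.79). Fabp2, Apoa1 and Fabp1 entered the rule, which admits few enterocyte UMIs. Fabp1 was at 1.46 and the cytochrome P450 gene Cyp3a11 at 2.48 (0.80 to 4.82), from 33 and 3 UMIs. Fabp2 stood at 455 CPM after UUO and 120 CPM after sham in kept cells outside the epithelium, and the whole enterocyte list summed to 2217 and 811 CPM there. The difference thus appeared on the same side in cells that are not epithelial, and the part of free RNA in it was not tested.

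Zg16 in Paneth-set cells differed in the same direction as in kept cells outside the epithelium. It was at 52.5 CPM after UUO and 238 CPM after sham (log2 -2.18, -3.20 to -1.23), from 14 and 32 UMIs, the lowest ratio in the class. Kept cells outside the epithelium had 38.1 and 155 CPM of Zg16. The next lowest were Phlda1 (-1.54), the prefoldin gene Pfdn5 (-1.53), the complex I gene Ndufa7 (-1.47), the cochaperone gene Dnajc7 (-1.42) and Oga (-1.33), the enzyme that removes O-GlcNAc. The highest were Tnfaip8 and the histone gene H1f3, each from 30 and 2 UMIs (log2 2.92, 0.94 to 6.03), and the aminopeptidase gene Enpep, from 28 and 2 UMIs (log2 2.82, 0.84 to 5.94). Clec2e was at 2.75 (1.10 to 5.09), Acta1 at 2.75 and Abhd17b at 2.72 (1.06 to 5.05). Acta1 was at -0.53 as a mean over cells, and Clec2e at 0.84 without shallower twins and members that had more lymphocyte-marker than structure UMIs.

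Other lists stayed near the level of all genes in Paneth-set cells. Protein-folding genes gave 0 higher and 0 lower of 20 compared, with a median of 0.16, and Hspa5 was at 4041 CPM after UUO and 3868 CPM after sham (log2 0.06, -0.09 to 0.22). Antimicrobial and barrier genes, which share Ang4 and Itln1 with the Paneth list, gave 0 and 0 of 6, with a median of 0.08. Sox9 was at 604 CPM after UUO and 460 CPM after sham (log2 0.39, -0.04 to 0.84). ILC3 and lymphocyte markers gave 1 higher and 0 lower of 11, with a median of 0.05. Their cytokine Il22 was at 994 CPM after UUO and 1759 CPM after sham (log2 -0.82), and at 0.01 without its top cell.

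Enteroendocrine-set cells were 1 after UUO and 3 after sham, so they are given cell by cell. The UUO cell, of 11385 UMIs, held 339 Chgb, 64 Chga, 63 Tac1 and 20 Tph1 UMIs, and the transcription factors Insm1, Fev and Neurod1 at 12, 11 and 9 UMIs. Tac1 codes for substance P and Tph1 for the enzyme that starts serotonin synthesis, and both mark enterochromaffin cells. The first sham cell, of 13011 UMIs, held 493 Chgb, 312 Chga, 70 Tph1 and 26 Tac1 UMIs. The third sham cell, of 1181 UMIs, held 50 Chgb, 40 Chga, 4 Tph1 and 3 Tac1 UMIs. These 3 cells thus shared Chgb, Chga, Tph1 and Tac1 but in unequal amounts, with more Tac1 than Tph1 in the UUO cell and the reverse in both sham cells. The first sham cell also held 10 Trpa1 and 9 Cck UMIs.

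The second sham cell carried another pattern. It had 8057 UMIs, of which 845 were Gcg and 233 were Cck, the gene for cholecystokinin, with 11 of Pyy, 16 of Scg2 and 5 of Chga. Gcg gives glucagon-like peptides in the gut, and Gcg with Pyy marks L cells. Tph1 and Tac1 were at 0 UMIs in this cell. Of the enteroendocrine-set cells it alone had more lymphocyte-marker than epithelial structure UMIs, at 60 and 56. No UUO member had a Gcg or Cck UMI, and 0 of 63 allows a share of up to 4.76% of members with a UMI.

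**Figure D5:**
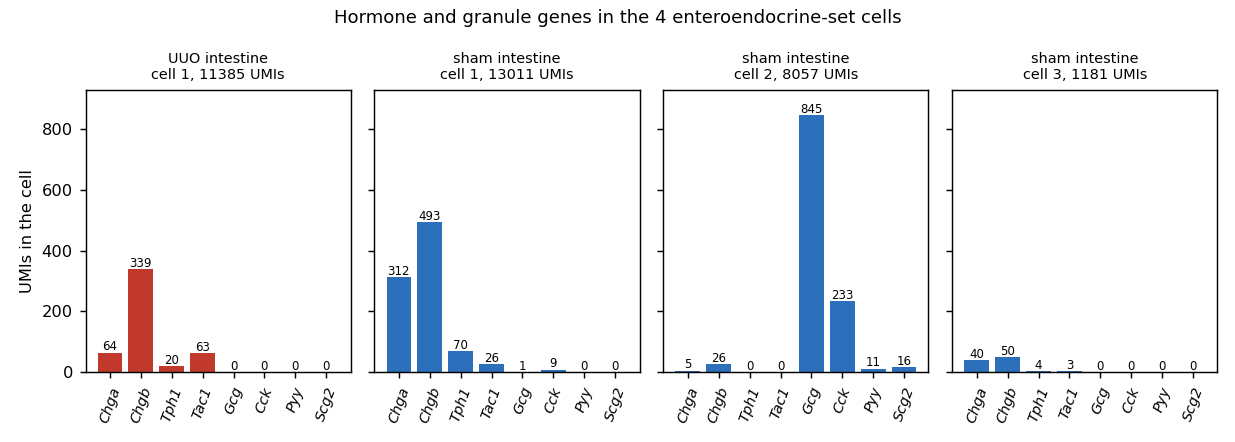
UMIs (y axis) of 8 hormone and granule genes in each of the 4 enteroendocrine-set cells, the UUO cell at the left and the 3 sham cells beside it. Chgb is at 339, 493, 26 and 50 UMIs from left to right, and Gcg is at 845 UMIs in the second sham cell and at most 1 in the others.

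Hormone RNA also differed between the libraries over all kept cells, members included. There Gcg had 5 UMIs in 5 cells after UUO and 1274 UMIs in 375 cells after sham, of which 866 lay in members. Cck had 0 UMIs after UUO and 366 UMIs in 121 cells after sham. Pyy had 0 after UUO and 15 after sham, while Gip had 0 in both. Tph1 had 61 UMIs after UUO and 91 after sham, and Tac1 had 78 and 35. Outside the members Gcg had 5 UMIs after UUO and 408 after sham, whereas Tph1 had 40 and 15 and Tac1 had 15 and 5. These are raw UMIs, from 4946 kept cells after UUO and 3501 after sham. Of the 40 Tph1 UMIs, 24 lay in 1 UUO cell, so no difference is read from Tph1 or Tac1 here. The sham library thus had Gcg RNA in many cells that are not enteroendocrine, while 1 sham cell held 845 of the 866 Gcg UMIs of its members. The cell with most Tph1 after UUO, at 24 UMIs, was not a member, since Tph1 is not among the 8 genes.

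Set against enterocytes of the same libraries, secretory cells had more genes lower than higher. Of 2245 genes compared over both libraries, 248 (11%) were at least 2 times higher in secretory cells and 906 (40.4%) at least 2 times lower. The median log2 ratio over all genes compared was -0.60. The highest beyond the rule were alpha-defensins, led by Defa41 with 215 UMIs in secretory cells and 1 in enterocytes (log2 9.80, 7.30 to 15.11), with Defa35 at 8.85, Defa34 at 8.53, Defa40 at 8.45, Defa29 at 8.27 and the calpain gene Capn9 at 8.28 (5.75 to 13.60). The lowest were the retinol dehydrogenase gene Rdh7, with 1 UMI in secretory cells and 643 in enterocytes (log2 -7.28, -12.59 to -4.80), the bile acid carrier gene Slc10a2 (-7.20, -12.50 to -4.71) and the vitamin B12 receptor gene Cubn (-6.46). Slc5a8 followed at -6.25 (-11.55 to -3.76), Apoa4 at -6.08 and Hsd17b6 at -6.07 (-9.12 to -4.21). Members were chosen for a high secretory share and few enterocyte UMIs, so the direction of such genes follows partly from the choice.

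Taken by class, goblet-set and Paneth-set cells had different counts of genes past 2-fold against enterocytes. In goblet-set cells 663 of 2629 genes (25.2%) were at least 2 times higher than in enterocytes and 666 (25.3%) at least 2 times lower. In Paneth-set cells 130 of 2030 (6.4%) were higher and 1200 (59.1%) lower. The median log2 ratio over all genes compared was 0.17 in goblet-set cells and -1.39 in Paneth-set cells. CPM are shares of a total, and the Defa family took 39.5% of Paneth-set UMIs after UUO and 42.0% after sham. The part of this in the Paneth counts was not tested. Clca1, at 6894 CPM in goblet-set cells and 11.5 CPM in enterocytes (log2 9.23, 8.74 to 9.76), and Spdef, with 78 and 2 UMIs (log2 8.70, 6.80 to 11.77), were among the highest in goblet-set cells. Atoh1 had 119 UMIs in goblet-set cells and 0 in enterocytes, so it was higher by a log2 ratio of at least 8.72, taken against a floor of 3 counts. In goblet-set cells the brush-border disaccharidase gene Sis was at 72.0 CPM and in enterocytes at 5830 CPM (log2 -6.34). Scin was low in Paneth-set cells, with 1 UMI against 870 in enterocytes (log2 -6.88, -12.19 to -4.40), and high in goblet-set cells, as given next.

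Goblet-set and Paneth-set cells differed widely from each other over both libraries. Of 2053 genes, 1141 (55.6%) were at least 2 times higher in goblet-set cells and 53 (2.58%) at least 2 times lower, and the median log2 ratio was 1.10. CPM are shares of a total, and the Defa family alone took the 39.5 and 42.0% of Paneth-set UMIs given above. Clca1 was at 6894 CPM in goblet-set cells and had 6 UMIs in Paneth-set cells (log2 8.85, 7.72 to 10.30), followed by Ido1 at 8.05 (5.56 to 13.36) and the actin-severing gene Scin at 7.81 (5.31 to 13.12). Defa5 was at 21.6 CPM in goblet-set cells and 13990 CPM in Paneth-set cells (log2 -9.34). All 11 mucin sugar enzymes compared were at least 2 times higher in goblet-set cells, as were all 10 epithelial structure genes and all 7 crypt progenitor genes. Relative to that shift of 1.10, goblet cells stood above Paneth cells for Atoh1, at 428 and 32.4 CPM (log2 3.72), Creb3l1, at 619 and 69.8 CPM (log2 3.15), Agr2, at 4073 and 366 CPM (log2 3.47), and Spdef, at 281 and 52.3 CPM (log2 2.42). Sox9 lay on the other side, at 169 CPM in goblet-set cells and 556 CPM in Paneth-set cells (log2 -1.72).

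Spink4 was the goblet-list gene that the classes shared. It was at 2735 CPM in goblet-set cells and 2732 CPM in Paneth-set cells over both libraries (log2 0.00). Within the UUO library the log2 ratio of goblet over Paneth was -0.86, and within the sham library it was 0.89. In Paneth-set cells Spink4 was at 2893 CPM after UUO and 2413 CPM after sham (log2 0.26), whereas in goblet-set cells it was lower after UUO, as given above. The difference between these ratios was not tested.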

How the data were processed

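The deposited files hold UMI counts per gene and cell, made by the authors from BD Rhapsody libraries. Per the submitters' processing notes the tools were CASAVA 1.8, UMI-tools and Seurat, with the genome mm10. An aligner is not given in these sources, nor is the way cells were called. Of 31253 gene identifiers, 31107 were matched to GENCODE M21.

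Levels are summed UMIs of a class as CPM of its total. They carry Poisson, shares Clopper-Pearson and log2 ratios conditional binomial intervals, each at 95%, covering counting error only. Cells of 1 library are not replicates, so no test was run, and "called" means 2-fold. UMI depth per cell limits low genes: a count of 3 was the floor. Doublets were not called. Free RNA was not subtracted.

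Among genes passing the filters the 10 highest and 10 lowest ratios were ranked, at least 6 of each named, leaving out predicted genes, antigen receptor segments, and mitochondrial, ribosomal, haemoglobin and sex-linked genes. The rule genes and list members were also nameable. The splits at 10% and at 9000 UMIs, and the genes given by depth (Agr2, Slc12a2, Ido1, Krt20, Hspa5, Pigr), were chosen after values were seen. The members and the 31 gene lists were chosen with earlier results of these data known.

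On Poisson counts simulated from the goblet comparison (1851 genes), 99% of 4-fold changes passed 2-fold and 2.30% of unchanged genes did. For the Paneth comparison (1062 genes) these were 98% and 2.67%. The simulation held counting error only, with no spread between cells or mice, so it gives no rate of false calls for the real counts. Kidney day 14 counts took the gene names of the other libraries, whose lists were identical. Python 3.11.15 was used with numpy 2.4.6, scipy 1.17.1, pandas 2.3.3 and matplotlib 3.10.9. Alternatives tried were other member thresholds (1, 2 and 10%), leaving out shared barcodes, shallower twins or members with more lymphocyte-marker than epithelial structure UMIs, other cell filters, thinning to 1000 UMIs, a filter of 10 UMIs per gene, a CPM total without the 12 rule genes, and the mean over cells.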

Additional observations from a re-analysis of the deposited data

How the results depend on the processing

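Limits: each group is 1 library, so no difference was set against spread between mice; few cells carry each class, a handful of deep cells carry most UMIs, and genes under 100 CPM in both groups were not compared. No paired analysis was possible because each group is 1 library. Of 102 alternative values for shares and counts of genes, 65 stayed close to the reported value and 37 moved; the cause was not tested. Splits at 10%, leaving out shallower twins and the Paneth gene counts under other settings were added after seeing the data. The secretory share of epithelial cells was lower after UUO than after sham under each setting tried.

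Members as a share of kept cells moved after UUO to 0.789% (members from 2%), 0.566% (from 10%) and 0.607% (members with more lymphocyte-marker than epithelial structure UMIs left out, here called marker-filtered; they include high-share Paneth-set cells with few lymphocyte UMIs), and after sham to 0.971, 0.857 and 0.657% (from 1, 2 and 10%), 0.714% (marker-filtered) and 0.959% (minimum of 1000 UMIs). As a share of epithelial cells they moved after UUO to 8.67% (marker-filtered), 20.996% (at most 10% mitochondrial UMIs) and 8.14% (from 10%), and after sham to 38.2% (shared barcodes left out), 18.4% (marker-filtered), 37.9% (at most 10% mitochondrial UMIs), 43.2% (thinned to 1000 UMIs) and 17.2% (from 10%). Thinning left out 577 UUO and 269 sham cells. The goblet-set share of members moved after UUO to 60.0% (marker-filtered) and 21.4% (from 10%), and after sham to 64.0% (marker-filtered).

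In goblet-set cells the count of genes at least 2 times higher, 170, went to 95 (members from 1%), 39 (2%), 10 (10%), 4 (thinned), 312 (a filter of 10 UMIs) and 261 (mean over cells); the count lower, 103, went to 66 (1%), 61 (2%), 6 (thinned), 199 (filter) and 197 (mean). Of the genes called by the mean over cells, 96 of the higher and 52 of the lower were also called in summed UMIs. In Paneth-set cells the count higher, 65, went to 27 (marker-filtered), 9 (thinned) and 221 (mean over cells), and the count lower, 19, to 69 (shared barcodes left out), 11 (marker-filtered), 33 (filter) and 152 (mean). Among the named genes of the goblet comparison, ratios changed sign for Lfng (-0.79) and Sox4 (-0.53) with members from 2%, and for Acta1 (0.80), Il17f (2.02), Tff3 (0.48) and Zg16 (0.15) with members from 10%; Muc2 (1.23) and Fcgbp (1.28), which were short of 2-fold in summed UMIs, also turned there. In the Paneth comparison they did so for Dnajc7 (0.089) and Pfdn5 (0.089) in marker-filtered members, and for Acta1 (-0.53) as a mean over cells. Of values past 2-fold, 180 of 208 in goblet-set cells and 131 of 147 in Paneth-set cells stayed past it. Defa24 in Paneth-set cells ranged from -0.15 to 0.39, and Zg16 in goblet-set cells from -2.07 to 0.15.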
